A study of Mus musculus with 4 samples.

Results

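Transcripts of 9 genes of antigen presentation by MHC class II and of the B cell lineage were read in naive CD4+ T cells and in cells at the start of induced regulatory T (iTreg) culture. The genes were H2-Aa, H2-Ab1, H2-Eb1, H2-DMa, Cd74, Ciita, Cd79a, Cd79b and Ms4a1. They were taken by name, with no threshold on their values but with earlier results of these data known. Every probe that carries 1 of these names was used. This gave 16 probes of the 56605 on the array, where all probes together represent 32562 genes. H2-Ab1 and Ciita had 4 probes each, Ms4a1 had 2 and the other 6 genes had 1 each. On Nr4a-TKO-labelled arrays, transcripts of the class II chains, of Cd74 and of Cd79a were higher than on WT-labelled ones at both stages. H2-Aa was higher by a log2 difference of 1.61 in naive T cells and of 1.34 at 3 h of culture. The difference was not shared by all B cell genes. Ms4a1 differed by 0.10 and 0.07 at a probe on an Ensembl transcript, while its RefSeq probe was at background on all 4 arrays, and Cd79b was lower by 0.56 in naive T cells and higher by 0.77 at 3 h.

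The series holds 4 single-colour Agilent arrays, with 1 array per group. Naive T cells were read for WT and for Nr4a-TKO, and so were iTreg cells after 3 h of culture. Nr4a-TKO stands for cells without the nuclear receptors Nr4a1, Nr4a2 and Nr4a3, made from Nr4a1-floxed, Nr4a2-floxed and Nr4a3-/- alleles on C57BL/6J, and the Cre driver is not given in the sources used here. The mice also carried a Foxp3 hCD2-hCD52 reporter, which was used to leave out cells that express Foxp3. Mice were of both sexes and matched for age. Naive T cells were sorted by CD4, high CD62L, low CD44 and the lack of Foxp3 from bone marrow chimeras. In these, irradiated Rag2-/- recipients had been given marrow depleted of T cells. The Nr4a-TKO cells came from recipients of both WT and Nr4a-TKO marrow, and the WT cells from recipients of WT marrow alone, so the genotype and the kind of chimera cannot be told apart. In the mixed recipients, the WT and Nr4a-TKO marrow carried different alleles of the surface marker Ly5. The sort took cells with the allele of the Nr4a-TKO marrow. For iTreg culture the cells were kept for 3 h with plate-coated anti-CD3 at 2 µg/ml, anti-CD28 at 0.5 µg/ml, IL-2 at 10 ng/ml, TGF-β1 at 0.2 or 0.5 ng/ml, and antibodies that block IFN-γ and IL-4. No group had a second array. The differences are therefore values without a test, set beside the same quantity over all genes and beside the spread of repeated spots.

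MHC class II molecules are pairs of an α and a β chain that show peptides to CD4+ T cells. In mice they are made mainly by B cells, dendritic cells and macrophages, and resting mouse T cells make little of them. New pairs bind the invariant chain, which is later removed so that H2-DM can load peptide. Transcription of these genes depends on Ciita, a coactivator that is held at the promoter by the RFX, CREB and NF-Y proteins on the X and Y boxes. Cd79a and Cd79b are the signalling chains of the B cell receptor, and Ms4a1 is the B cell surface protein CD20.

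The stretch before the start of H2-Aa and of H2-Eb1 is shown because both genes were higher on both Nr4a-TKO-labelled arrays and because the X and Y boxes of class II genes are known to lie in this stretch. RefSeq promoters of GRCm38.p6 were held for 4 of the 9 genes (H2-Aa, H2-Eb1, H2-DMa and Cd79a), each with 250 bases before and 50 after a start. The search used the letters GCAAC for the X box core and CCAAT for the Y box core on both strands, that is also GTTGC and ATTGG. The capitals mark the matches, and the last 120 bases before the start are printed 5′ to 3′ on the strand of the gene. The H2-Aa stretch lies at chr17:34287824-34287943 on the minus strand, that of H2-Eb1 at chr17:34305747-34305866 on the plus strand, that of the first H2-DMa start at chr17:34122712-34122831 on the plus strand and that of Cd79a at chr7:24897377-24897496 on the plus strand.
H2-Aa: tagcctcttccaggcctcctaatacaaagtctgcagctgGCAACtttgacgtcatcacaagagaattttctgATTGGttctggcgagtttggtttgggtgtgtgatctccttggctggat
H2-Eb1: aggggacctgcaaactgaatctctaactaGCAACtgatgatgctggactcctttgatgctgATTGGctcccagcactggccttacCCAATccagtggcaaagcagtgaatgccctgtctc
H2-DMa: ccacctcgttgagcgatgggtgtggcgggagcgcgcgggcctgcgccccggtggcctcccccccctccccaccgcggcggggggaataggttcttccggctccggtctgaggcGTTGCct
Cd79a: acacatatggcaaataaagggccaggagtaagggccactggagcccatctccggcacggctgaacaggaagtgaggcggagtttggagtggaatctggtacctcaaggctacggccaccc

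In H2-Aa, GCAAC began at -81 from the start and ATTGG at -48, a spacing of 33 bases. In H2-Eb1 the pair began at -91 and -59, a spacing of 32 bases, and CCAAT was found again at -35. The first H2-DMa start had GTTGC at -7 and no Y box core in the 300 bases, the second had ATTGG at -198 and no X box core, and Cd79a had neither. Of 32851 promoters in the table, 37.4% held CCAAT on either strand, 35.2% held GCAAC and 13.7% held both. The order seen in H2-Aa and H2-Eb1, GCAAC and then ATTGG with starts 15 to 40 bases apart, was found in 204 promoters or 0.621%. Those of H2-Aa and H2-Eb1 are among them, and the range holds both of their spacings, so this share is a description and not a test. These matches are letters in a window and are not measurements of binding.

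The probes decide what each value stands for, and 2 sets of them are shown for this reason. Positions of probes are on mm9, as the scanner files give them, and the exon of each probe was not analysed here because no annotation of that build was used. H2-Ab1 was read by 4 probes on chromosome 17, of which A_55_P1962747 (chr17:34406296-34406355) and A_55_P2146560 (chr17:34406305-34406363) share 51 bases. Within those they differ by 1 base, T51C, counted from 1 at the 5′ end of A_55_P1962747 and marked in capitals below, so the 2 are not independent readings of the gene. The probe A_55_P2741874 (chr17:34404357-34404416) lies apart from them, and none of its 3 reading frames holds a stop codon. Below, A_55_P1962747 is shown from base 31 to base 60 and A_55_P2146560 over the same stretch, while A_55_P2741874 is shown whole.
A_55_P1962747: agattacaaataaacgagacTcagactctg
A_55_P2146560: agattacaaataaacgagacCcagactctg
A_55_P2741874: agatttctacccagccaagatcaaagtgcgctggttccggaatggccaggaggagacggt

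Ms4a1 was read by 2 probes on the minus strand of chromosome 19, whose first 30 bases follow. A_55_P2802151 (chr19:11325409-11325468) is designed on the RefSeq transcript, and A_66_P120649 (chr19:11324334-11324393) on an Ensembl transcript.
A_55_P2802151: cagaaatgtaatgggttcccagatctcaaa
A_66_P120649: ccgctatgcctggagaggatggggaggtgg

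All 4 arrays share 1 slide and 1 scan, and 65.0% to 67.7% of their probes were well above background. Probes with at least 5 spots gave an SD of 0.16 to 0.19 for a difference between 2 spots on the log2 scale, and of 0.20 to 0.23 at levels from 4 to 8, where most of the 16 probes lie. At levels from 8 to 10 it was 0.16 to 0.18. This spread covers repeated spots within an array, and it does not cover labelling, hybridization, mice or cultures. The targeted genes did not all follow the genotype labels. In naive T cells, Nr4a1 was at 7.04 on the WT-labelled array and 8.38 on the Nr4a-TKO-labelled one, 2.52-fold higher. At 3 h, Nr4a1 was at 11.33 on the WT-labelled array and 11.81 on the Nr4a-TKO-labelled one, the brighter Nr4a2 probe was at 8.82 and 10.20, and 2 of 3 Nr4a3 probes were lower on the Nr4a-TKO-labelled array, by 1.85 and 1.46. The part of Nr4a1 and Nr4a2 that the alleles lose is not given in the sources used here, so it is not known whether these probes can check the labels. Each direction between the genotypes below rests on the labels.

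The chains of I-A, H2-Aa and H2-Ab1, had the largest differences among the 9 genes. H2-Aa, the α chain of I-A, was at a log2 level of 6.59 in WT naive T, 8.20 in Nr4a-TKO naive T, 7.01 in WT iTreg and 8.35 in Nr4a-TKO iTreg. Both Nr4a-TKO-labelled arrays were higher than both WT-labelled ones, and the 2 Nr4a-TKO-labelled arrays differed by 0.15, less than the spread of spots. The fold difference between the genotypes was 3.05 in naive T cells and 2.53 at 3 h. In naive T cells 169 of 23125 genes had a larger positive difference than H2-Aa, and at 3 h 206 of 23516 did. H2-Aa was more than 2-fold higher at both stages, as were 68 genes or 0.31% of the 21922 measured at both.

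H2-Ab1, the β chain that pairs with it, was represented by A_55_P1962747, at 7.82 in WT naive T, 8.75 in Nr4a-TKO naive T, 8.01 in WT iTreg and 9.39 in Nr4a-TKO iTreg. The order of the arrays was that of H2-Aa, with the 2 WT-labelled arrays apart by 0.18, close to the spread of spots. The difference between the genotypes was 0.93 in naive T cells, just inside 2-fold, and 1.38 at 3 h. Over its 4 probes the difference ran from 0.93 to 1.22 in naive T cells, with 3 of 4 past 2-fold, and from 1.13 to 1.46 at 3 h, with 4 of 4 past it. Of all probes measured, 1.83% were more than 2-fold higher in naive T cells and 1.64% at 3 h. A_55_P2741874, which shares no bases with the overlapping pair, gave 6.14, 7.19, 6.44 and 7.57 in the same order of arrays, and differences of 1.05 and 1.13.

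H2-Eb1, the β chain of I-E, was at 5.13 in WT naive T, 5.82 in Nr4a-TKO naive T, 5.16 in WT iTreg and 5.90 in Nr4a-TKO iTreg. The 2 arrays of each genotype lay within 0.09 of each other, and the genotypes differed by 0.68 and 0.74, or 1.61-fold and 1.67-fold. C57BL/6 mice carry a defective gene for the I-E α chain, so this β chain is not shown at their cell surface, and the reading is one of transcript only.

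Cd74 is the invariant chain, the chaperone of new class II pairs. Its 1 probe gave 8.13 in WT naive T, 8.88 in Nr4a-TKO naive T, 7.77 in WT iTreg and 8.63 in Nr4a-TKO iTreg. It was higher on the Nr4a-TKO-labelled array by 0.75 in naive T cells and by 0.86 at 3 h, 1.68-fold and 1.81-fold, and it changed with culture by -0.36 and -0.25.

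H2-DMa, the α chain of the peptide loader H2-DM, was set apart from these by a large change in culture. It was at 8.14 in WT naive T and 8.40 in Nr4a-TKO naive T, against 5.50 in WT iTreg and 6.15 in Nr4a-TKO iTreg. Both naive arrays were above both iTreg arrays. The level was 6.25-fold lower at 3 h on WT-labelled arrays and 4.74-fold lower on Nr4a-TKO-labelled ones. The genotypes differed by 0.26 in naive T cells, above the spread of spots at this level, and by 0.66 at 3 h. In WT cells, 215 of 23243 genes had a larger decrease.

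Ciita, the coactivator of class II transcription, was dim, and its 4 probes did not read alike. A_66_P119948, which represents the gene, was at 5.11 in WT naive T, 5.94 in Nr4a-TKO naive T, 4.91 in WT iTreg and 5.60 in Nr4a-TKO iTreg, with differences between the genotypes of 0.84 and 0.68. A_55_P2035003 differed by 0.33 at each stage and A_55_P2736700 by 0.06 and 0.25. A_55_P2741198 was at background in WT naive T, so that its difference of 0.46 there is a lower bound, and at 3 h it differed by -0.12. No Ciita probe passed 2-fold, and with the mean of its probes Ciita differed by 0.42 and 0.29.

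**Figure D1:**
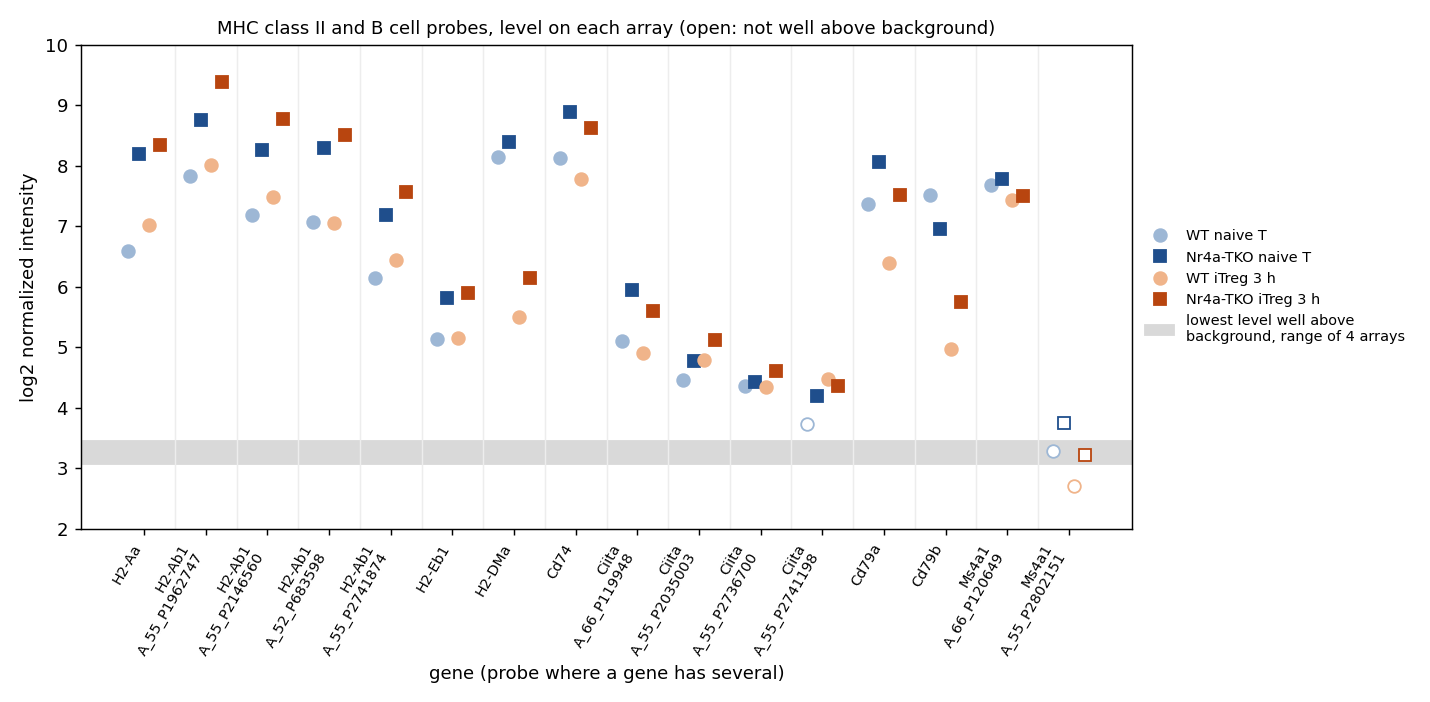
Log2 normalized intensity of the 16 probes on each of the 4 arrays, with circles for WT, squares for Nr4a-TKO, blue for naive T and orange for iTreg at 3 h. Open symbols are not well above background, and the grey band spans the lowest level well above background on the 4 arrays. The squares of H2-Aa at 8.20 and 8.35 lie above its circles at 6.59 and 7.01, the points of Ms4a1 lie between 7.43 and 7.79, and the orange points of H2-DMa and Cd79b lie well under the blue ones.

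The 3 B cell genes did not move together. Cd79a, the α chain that signals for the B cell receptor, was at 7.37 in WT naive T, 8.07 in Nr4a-TKO naive T, 6.39 in WT iTreg and 7.52 in Nr4a-TKO iTreg. It was 1.62-fold higher on the Nr4a-TKO-labelled array in naive T cells and 2.20-fold higher at 3 h, the only one of the 3 past 2-fold between the genotypes.

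Cd79b, its partner chain, was at 7.51 in WT naive T and 6.95 in Nr4a-TKO naive T, and at 4.98 in WT iTreg and 5.75 in Nr4a-TKO iTreg. The Nr4a-TKO-labelled array was thus the lower one in naive T cells, by 0.56, and the higher one at 3 h, by 0.77. In culture Cd79b was 5.79-fold lower at 3 h on WT-labelled arrays and 2.30-fold lower on Nr4a-TKO-labelled ones. The 2 changes differed by 1.33, and 2.43% of 22249 genes had a change on Nr4a-TKO-labelled arrays more than 2-fold above that on WT-labelled arrays, with 247 genes above Cd79b. With a normexp offset of 50 the 2 changes differed by 0.77, within 2-fold, and the change on Nr4a-TKO-labelled arrays was -0.74, also within it.

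The Ms4a1 probe on the RefSeq transcript was at background on all 4 arrays, that is not well above it. The other probe gave 7.69 in WT naive T, 7.79 in Nr4a-TKO naive T, 7.43 in WT iTreg and 7.50 in Nr4a-TKO iTreg, with differences between the genotypes of 0.10 and 0.07. The value for Ms4a1 therefore rests on the Ensembl transcript alone, and the transcript of the CD20 protein in RefSeq was not detected at the sensitivity of its probe.

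Over the 9 genes, the median difference between the genotypes was 0.70 in naive T cells with 8 of 9 above 0, and 0.77 at 3 h with 9 of 9 above 0. Over all genes the median was -0.02 in naive T cells, where 47.2% were above 0, and 0.00 at 3 h, where 50.4% were. In naive T cells 1 of 9 genes was more than 2-fold higher (H2-Aa) and 0 lower, beside 1.92% and 1.68% of all genes. At 3 h 3 of 9 were more than 2-fold higher (H2-Aa, H2-Ab1 and Cd79a) and 0 lower, beside 1.74% and 1.94%. Cd79a was within 2-fold with a normexp offset of 50, at 0.81, and without background correction, at 0.97, which left 2 genes. The 6 class II genes alone had medians of 0.79 and 0.80 with all 6 above 0 at both stages, and the 3 B cell genes had medians of 0.10 and 0.77. These are bulk samples, in which a different share of cells that carry a transcript and a different amount of it per cell cannot be told apart.

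**Figure D2:**
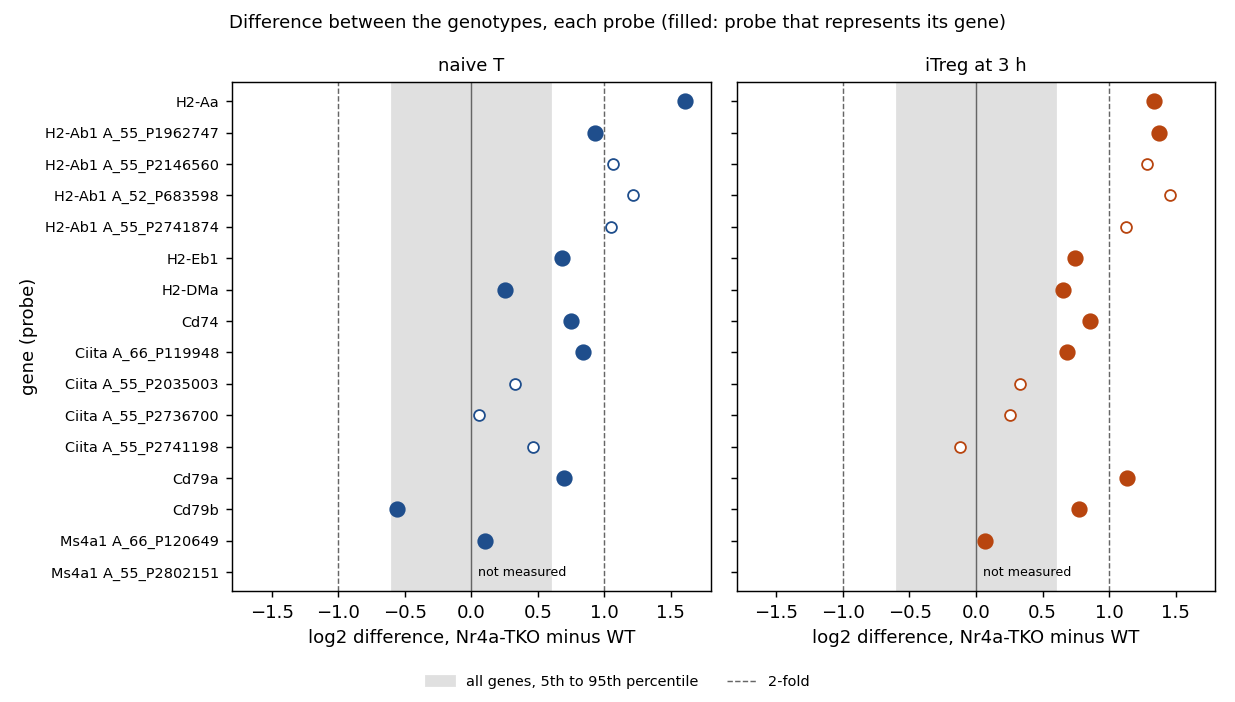
Log2 difference between Nr4a-TKO-labelled arrays and WT for each probe, in naive T cells on the left and iTreg at 3 h on the right. The grey band leaves out the highest and lowest 5% of all genes and runs from -0.60 to 0.60 at both stages, and dashed lines mark 2-fold. H2-Aa and the H2-Ab1 probes lie near or past 2-fold in both panels, Ms4a1 lies at 0.10 and 0.07, and Cd79b is on opposite sides of 0.

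With culture, 2 of the 9 genes were more than 2-fold lower at 3 h on the arrays of both genotypes, H2-DMa and Cd79b, and 0 were more than 2-fold higher. Of all genes, 8.55% were lower and 8.4% higher by this measure on WT-labelled arrays, and 7.99% and 7.78% on Nr4a-TKO-labelled ones. The median change of the 9 genes was -0.25 on WT-labelled arrays and -0.29 on Nr4a-TKO-labelled ones, against -0.05 and -0.02 over all genes. The chains H2-Aa, H2-Ab1 and H2-Eb1 changed by 0.42, 0.18 and 0.03 on WT-labelled arrays and by 0.15, 0.63 and 0.09 on Nr4a-TKO-labelled ones. Cd79a changed by -0.98 and -0.54.

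The other class II genes were described from a list of 17, all of which had a probe. In naive T cells 3 were more than 2-fold higher on the Nr4a-TKO-labelled array and 0 lower, beside 1.92% and 1.68% of all genes. At 3 h 0 were past 2-fold, beside 1.74% higher and 1.94% lower. The median differences were 0.09 and 0.05. H2-Eb2, an H2-Eb1-like β chain gene, was not well above background in WT naive T and at 4.97, 4.56 and 5.52 on the arrays of Nr4a-TKO naive T, WT iTreg and Nr4a-TKO iTreg, with a difference of at least 1.52 in naive T cells and 0.96 at 3 h. H2-DMb2, a β chain of H2-DM, was higher by 1.09 and 0.77 and its close copy H2-DMb1 by 0.57 and at least 0.67, and since the 2 genes are near-identical each value is uncertain. Marchf8, a ubiquitin ligase that acts on membrane proteins, was the remaining one, with a bound of 1.03 in naive T cells.

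At their brightest probe, the other genes of the list stayed within 2-fold between the genotypes. H2-Oa and H2-Ob, the chains of the H2-DM inhibitor H2-O, differed by 0.56 and 0.28 in naive T cells and by -0.07 and 0.47 at 3 h. The protease Ctss, which cuts the invariant chain, differed by -0.19 and 0.06. The subunits of RFX and NF-Y, which bind the X and Y boxes, differed by -0.17 to 0.42 in naive T cells and by -0.23 to 0.06 at 3 h. In one NF-Y gene the probes did not read alike, since another probe of Nfyb was more than 2-fold lower at 3 h.

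With culture, some genes of the list changed in the direction of H2-DMa and others the other way. On WT-labelled arrays, 3 of 16 measured genes of the list were more than 2-fold lower and 2 higher, beside 8.55% and 8.4% of all genes. On Nr4a-TKO-labelled ones 5 of 17 were lower and 0 higher, beside 7.99% and 7.78%. H2-Ob changed by -1.34 and -1.14, Ctss by -1.65 and -1.40 and the protease Lgmn by -2.01 and -1.77, each past 2-fold on the arrays of both genotypes. H2-Oa, at -0.79 and -1.42, and Rfxank, at -0.59 and -1.03, were past it only on Nr4a-TKO-labelled arrays, and the difference was not tested. Rfx5 changed the other way, by 1.56 and 1.00, and so did H2-Eb2, by at least 1.11 and by 0.55.

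**Figure D3:**
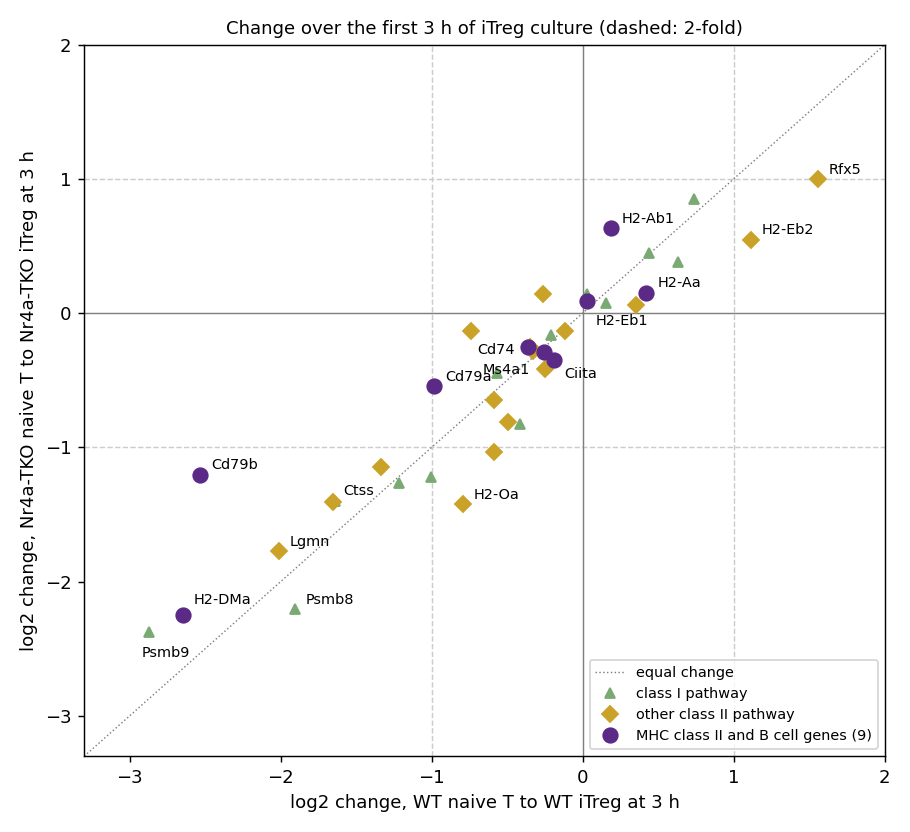
Log2 change over 3 h of iTreg culture, with the horizontal axis for WT-labelled arrays and the vertical axis for Nr4a-TKO-labelled ones. Purple circles are the 9 genes, yellow diamonds other class II genes and green triangles class I genes, the dotted line marks equal change and dashed lines 2-fold. H2-DMa lies at -2.64 and -2.25 near the line of equal change, Cd79b at -2.53 and -1.20 lies above it, and H2-Aa, H2-Ab1 and H2-Eb1 lie near 0.

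Markers of the cell types that make class II were read beside these values. Of 24 other B cell genes, 21 had a probe and 20 were measured, and no probe was named for the immunoglobulin genes Ighm, Ighd or Igkc. In naive T cells 16 of 20 were above 0, beside 47.2% of all genes, with a median of 0.13. There 0 were past 2-fold, beside 1.92% of all genes higher and 1.68% lower. At 3 h 19 of 20 were above 0, beside 50.4% of all genes, with a median of 0.27. Of the 20, 3 were more than 2-fold higher at 3 h and 0 lower, beside 1.74% and 1.94% of all genes. These 3 were Spib, a transcription factor of B cells and plasmacytoid dendritic cells, at 1.31, Bank1, a scaffold of B cell receptor signalling, at a bound of 1.12, and Tnfrsf13c, the receptor for BAFF, at 1.05. The exception at 3 h was Pou2af1, a coactivator in B cells, at -0.74. The summed linear level of the 20 genes was 3888 in WT naive T, 4146 in Nr4a-TKO naive T, 4224 in WT iTreg and 4259 in Nr4a-TKO iTreg, and much of it came from 1 bright Cd22 probe.

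Counted by probe, more of the B cell list was apart. Of its probes, 30 of 35 were above 0 in naive T cells with 3 more than 2-fold higher, beside 1.83% of all probes. At 3 h 35 of 36 were above 0 with 7 more than 2-fold higher and 0 lower, beside 1.64% of all probes higher. Pax5, which fixes B cell identity, differed by 0.08 and 0.11 at its brighter probe. Cr2, a complement receptor, gave 0.50 and 0.54 at its brightest probe and 1.15 and 1.77 at another. Cd22, an inhibitory receptor, gave -0.05 and 0.15 at the bright probe and 1.55 and 0.69 at another. The B cell defining markers Pax5, Cd79a and Ms4a1 each had a probe well above background on all 4 arrays, while the RefSeq probe of Ms4a1 had it on none. The cells were sorted for CD4, and the purity of the sort is not given in the sources used here. The part of B cells in the result was not tested.

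Dendritic cell genes were mixed. Of 10, 9 were measured in naive T cells with a median of 0.10, and 7 at 3 h with a median of -0.14. At their brightest probe 0 passed 2-fold. Of all genes, 1.92% were higher and 1.68% lower by this measure in naive T cells, and 1.74% and 1.94% at 3 h. The defining markers Itgax, Flt3 and Zbtb46 passed the background limit on all 4 arrays and differed by 0.25, -0.26 and -0.02 in naive T cells and by 0.18, -0.22 and 0.41 at 3 h. Another Itgax probe, well above background on 2 arrays, gave bounds of 1.13 and -1.09. The summed linear level was 4530 in WT naive T, 3989 in Nr4a-TKO naive T, 3553 in WT iTreg and 3558 in Nr4a-TKO iTreg. Most of this sum on each array came from the bright Siglech probe, at 12.07 in WT naive T. Of the other Siglech probes, A_55_P2141008 was well above background on 1 array and A_55_P2734922 on 0. Whether the bright probe reads the Siglech transcript was not tested, so its values and this sum are uncertain.

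Of 12 monocyte and macrophage genes, 9 were measured, with medians of -0.02 and -0.11, and others, Fcgr1 and Adgre1 among them, were not well above background on any array. The defining markers Lyz2, Csf1r and Itgam differed by -0.02, 0.12 and 0.08 in naive T cells, where Lyz2 was at background on the Nr4a-TKO-labelled array and its value is a bound, and by -0.17, -0.18 and 0.00 at 3 h, and a dimmer Itgam probe by 1.31 and 0.40. Of all genes, 1.92% were more than 2-fold higher and 1.68% lower in naive T cells, and 1.74% and 1.94% at 3 h. Cd14, a receptor for bacterial lipid, was the only gene of the list past 2-fold at its brightest probe, in naive T cells. It was at 6.66 in WT naive T, 3.97 in Nr4a-TKO naive T, not well above background in WT iTreg and at 4.58 in Nr4a-TKO iTreg. Its difference between the genotypes was thus -2.69 in naive T cells and a bound of 0.80, in the opposite direction, at 3 h. Tyrobp differed by -0.85 in naive T cells and by 0.09 at 3 h. The summed linear level of the list was 39346, 41185, 36135 and 35699 in the same order of arrays. Most of this sum on each array came from the bright Itgam probe, at 15.06 in WT naive T. That level was above that of the T cell gene Cd3e, at 13.05 on the same array. Whether the bright probe reads the Itgam transcript was not tested, so its values and this sum are uncertain. The part of these cell types in the class II values was not tested.

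Markers of the labelled cell type were read as well. Of 13 T cell genes 12 had a probe, all well above background on the 4 arrays, with Cd3e at 13.05, 13.02, 12.53 and 12.18 and Cd4 at 11.58, 11.59, 10.54 and 10.06 in the order of arrays used above. Their median difference between the genotypes was 0.03 in naive T cells and -0.22 at 3 h. Lat, an adaptor of the T cell receptor, was the 1 gene past 2-fold, at 1.15 at 3 h. Of all genes, 1.74% were more than 2-fold higher and 1.94% lower at 3 h, and 1.92% and 1.68% in naive T cells. The summed linear level of the T cell list was 32284, 31272, 27823 and 23038. The 2 CD8 genes, Cd8a and Cd8b1, differed by -0.10 and -0.16 in naive T cells and by -0.59 and -0.31 at 3 h, with a summed linear level of 142, 128, 95.9 and 74.4.

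**Figure D4:**
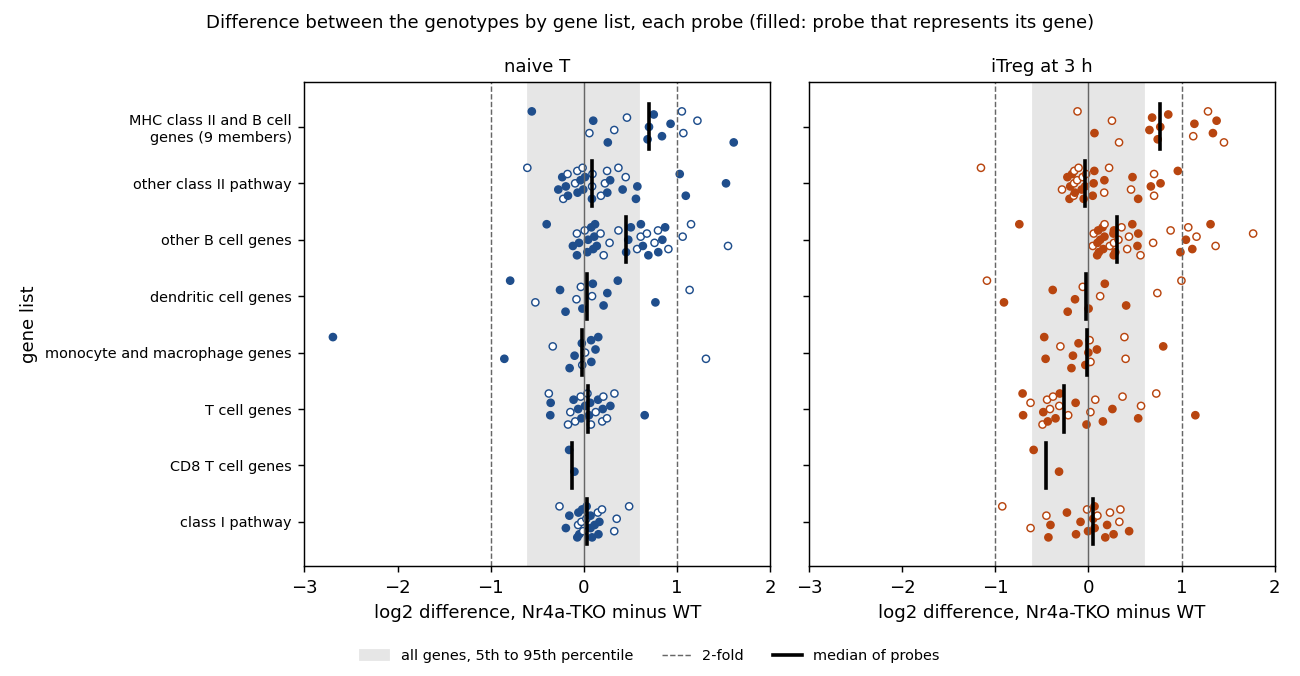
Log2 difference between Nr4a-TKO-labelled arrays and WT for every measured probe of each gene list, in naive T cells on the left and at 3 h on the right, with filled points for the probe that represents its gene and black bars for the median of the probes. The medians of the 9 genes lie at 0.70 and 0.77 and those of the other B cell probes at 0.45 and 0.31, while those of the other class II, dendritic, monocyte and macrophage and class I lists lie within 0.1 of 0 at both stages.

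The genes whose levels followed the class II chains most closely were found by the distance between log2 values centred on their mean over the 4 arrays, among 15664 genes well above background on all of them. The mean profile of H2-Aa, H2-Ab1, H2-Eb1 and Cd74 was -0.55 in WT naive T, 0.44 in Nr4a-TKO naive T, -0.48 in WT iTreg and 0.59 in Nr4a-TKO iTreg. The nearest were Tnfrsf14 at a distance of 0.09, Tex35 at 0.10, BC023719 at 0.14, Nenf at 0.18 and Dst at 0.19. Nearest to Cd79b, whose centred values were 1.21, 0.65, -1.32 and -0.55, were Slco3a1 at 0.17, Slco1c1 at 0.20, Rhob at 0.21, Igtp at 0.22 and Rnf125 at 0.26. Likeness over 4 arrays is a description of these arrays only.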

How the data were processed

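Transcripts were measured on 4 arrays, 1 per group, grouped by their titles. The authors deposited for each array the output of Agilent Feature Extraction 11.5.1.1, with spot intensity, local background intensity, a processed intensity and flags (well above background, outlier, saturated). The deposited value table is on the log2 scale. The methods name RMA. By comparison with the scanner output, the table is the log2 processed intensity with each array's 75th percentile set to 0, with column medians of -2.16, -2.17, -2.33 and -2.28.

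With limma 3.58.1 in R 4.3.3, spot intensities were background-corrected by normexp (offset 0), quantile-normalized over the 4 arrays, put on the log2 scale and averaged per probe. Control spots and 115 to 160 outlier spots per array were left out, and no spot was saturated (0). A gene took its probe with the highest mean. Probes at background took their own value or, if higher, the array's lowest value among probes well above it (3.45, 3.37, 3.43 and 3.07), which gives a bound. A difference needed 1 array well above background, and the threshold was 2-fold. Of 56605 probes, 41700 kept a current symbol, 1518 were named by transcript and 520 by synonym through RefSeq (GRCm38.p6), 8036 kept the name in the files and 4831 had none. Python 3.11.15, pandas 2.3.3, numpy 2.4.6 and matplotlib 3.10.9 did the rest, and the counting was tested on simulated data.

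The 9 genes, the marker lists and the rule for naming genes (the 9 genes with every probe, the lists, the targeted genes, and the 5 genes nearest each of 2 profiles) were chosen with earlier results of these data known. Alternatives were 75th percentile scaling, no background correction, a normexp offset of 50, the mean of a gene's probes, the deposited values, other filters on dim probes, outlier spots kept, and thresholds of 1.5-fold and 3-fold. The number of arrays limits the precision. Single values of some marker genes are not reported here.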

Additional observations from a re-analysis of the deposited data

Results flagged for a closer look

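The differences between the genotypes had opposite signs at the 2 stages for 2 probes, and with 1 array per group this was not tested. Cd79b differed by -0.56 in naive T cells and by 0.77 at 3 h. The Ciita probe A_55_P2741198 differed by 0.46 in naive T cells, a bound, and by -0.12 at 3 h, the latter less than the spread of spots.

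The changes from naive T to iTreg at 3 h had opposite signs in the 2 genotypes for 2 probes, also not tested. The H2-Ab1 probe A_52_P683598 changed by -0.011 on WT-labelled arrays and by 0.23 on Nr4a-TKO-labelled ones. The Ciita probe A_55_P2736700 changed by -0.017 and by 0.18. The H2-Ab1 change of 0.23 is above the spread of spots at its level, and the others are within it.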

How the results depend on the processing

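No paired analysis was possible because each group had 1 array. Over the alternatives, each of the 9 genes kept the sign of its difference between the genotypes at both stages. The sign of the change in culture turned for Ciita with the mean of its probes (0.22 on WT-labelled arrays and 0.09 on Nr4a-TKO-labelled ones) and for H2-Eb1, whose change lay between -0.02 and 0.09. A normexp offset of 50 gave median differences of 0.40 in naive T cells and 0.36 at 3 h, and left 1 gene more than 2-fold lower in culture on Nr4a-TKO-labelled arrays, as did a 3-fold threshold (1). With the mean of a gene's probes, 2 genes were more than 2-fold higher in naive T cells. At 1.5-fold, 6 were higher in naive T cells, 8 at 3 h and 1 with culture on Nr4a-TKO-labelled arrays, and at 3-fold 0 were higher at 3 h. Among values of single genes under these settings, 28 moved by more than the spread of spots and 332 did not. The 332 include values that could not move. The probes representing the 9 genes were well above background on all arrays, so the filters on dim probes left every value unchanged. The mean of a gene's probes could not change genes with 1 measured probe. The deposited values and the percentile scaling rest on the same processed intensity and are not separate checks. The count of 332 therefore overstates how far the values were tested.

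Counts over all genes depended on the handling of dim spots. Genes more than 2-fold higher and lower numbered 445 and 389 in naive T cells and 410 and 456 at 3 h, against 92 and 83, and 75 and 99, with an offset of 50, 183 and 166, and 164 and 187, without background correction, 229 and 191, and 236 and 213, when both arrays had to be well above background, 680 and 599, and 681 and 646, in the deposited values, 658 and 583, and 666 and 632, under 75th percentile scaling, and 926 and 852, and 906 and 878, without a filter. In culture, 1953 and 1987 on WT-labelled arrays and 1846 and 1896 on Nr4a-TKO-labelled ones became 950 and 929, and 838 and 805, with an offset of 50, and 1322 and 1323, and 1222 and 1187, without background correction. The 541 genes with the larger change on Nr4a-TKO-labelled arrays became between 87 and 1785. Signal over background limits the dim genes most: with an offset of 50, H2-Eb1 differed between the genotypes by 0.32 and 0.36 and Ciita by 0.40 and 0.30. The same offset took the 3 h difference of H2-DMa from 0.66 to 0.35 and that of Cd79b from 0.77 to 0.35.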

Other observations

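Class I antigen presentation was read from a list of 14 genes, of which 13 had a probe and all 13 were measured, with a summed linear level of 68794 in WT naive T, 67527 in Nr4a-TKO naive T, 65410 in WT iTreg and 63064 in Nr4a-TKO iTreg. Between the genotypes 0 of 13 passed 2-fold at either stage. Of all genes, 1.92% were higher and 1.68% lower by this measure in naive T cells, and 1.74% and 1.94% at 3 h. The class I medians were 0.03 in naive T cells and 0.05 at 3 h. The class I differences ranged from -0.19 to 0.17 in naive T cells and from -0.43 to 0.44 at 3 h. With culture, 5 of 13 were more than 2-fold lower on WT-labelled arrays and 5 of 13 on Nr4a-TKO-labelled ones, beside 8.55% and 7.99% of all genes. These were the same genes on both: Tap1, Tap2, Tapbp, Psmb8 and Psmb9. Psmb9, a subunit of the immunoproteasome, was at 11.29 in WT naive T, 11.23 in Nr4a-TKO naive T, 8.42 in WT iTreg and 8.86 in Nr4a-TKO iTreg, changes of -2.87 and -2.37. Psmb8, another such subunit, changed by -1.90 and -2.20. Tap1 and Tap2, the peptide transporter, changed by -1.64 and -1.21 on WT-labelled arrays and by -1.40 and -1.26 on Nr4a-TKO-labelled ones. The class I heavy chain H2-K1 and its partner B2m changed by 0.03 and 0.15 on WT-labelled arrays and by 0.15 and 0.08 on Nr4a-TKO-labelled ones. Because H2-K1 has near-identical relatives that could bind its probe, its value is uncertain.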
